A study of Homo sapiens with 12 samples.

Results

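The effect of PADI2 knockdown was compared between RNA bound to chromatin and polyadenylated RNA of the whole cell, in T47D-MTVL cells. The comparison drew on 8 of the 12 libraries of the series. It covered 13332 of the 57820 annotated genes, namely those with a mean CPM (counts scaled to library size) of at least 1 in each fraction. T47D is a luminal, hormone receptor-positive line from a human breast cancer, and the MTVL derivative carries a luciferase reporter behind the MMTV promoter. All cells were grown in medium free of phenol red with charcoal-treated serum and received no R5020, a synthetic progestin. Cells transfected with siRNA against PADI2 (si-PADI2) or with control siRNA (si-control) gave 2 poly(A) libraries and 2 chromatin libraries for each siRNA. Another 4 poly(A) libraries, used only for values side by side, came from T47D-MTVL cells transfected with an HA-tagged RNA polymerase II that resists alpha-amanitin, either wild type (WT) or R1810A. These cells expressed the polymerase for 24 h before 12 h of alpha-amanitin at 6 µg/ml. The labels do not say whether the fractions came from the same transfections or whether replicates were separate cultures. The p-values therefore reflect only how far these libraries varied, which can be technical variation.

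RNA that stays with chromatin after nuclei are washed with urea and detergent consists largely of transcripts still being made, with RNAs that are retained in the nucleus. Polyadenylated RNA is mostly finished mRNA in the cytoplasm, whose level depends both on synthesis and on how fast the mRNA is degraded. A change that starts at transcription is normally seen in both fractions, whereas processing, export or decay can alter mRNA with little change on chromatin. PADI2 converts arginine to citrulline in proteins, and R1810A replaces an arginine of the tail-like C-terminal domain that the main subunit of RNA polymerase II carries.

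For each gene, the log2 change of si-PADI2 over si-control was estimated in poly(A) RNA and in chromatin RNA, and the chromatin change minus the poly(A) change was tested as an interaction contrast. It is called the difference below. A change passed the test at an adjusted p under 0.05. An mRNA change was a poly(A) change that passed the test and was at least 2-fold. It was called unmatched when the difference passed the test against the direction of the mRNA and the chromatin change was at most 0.5 of the poly(A) log2 change. It was called matched when the chromatin change passed the test in the same direction and the difference did not pass. The remaining mRNA changes were called undecided.

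The chromatin libraries were shallower, with depths in units of 1e6 counts of 6.67 to 7.04 for si-control and 2.72 to 2.8 for si-PADI2, against 44.32 to 132.76 in the siRNA poly(A) libraries. They also held RNA from genes that were silent in poly(A) RNA. A set of 3850 protein-coding genes with at most 4 counts over the 4 siRNA poly(A) libraries had a median chromatin level of 2.46 CPM per kb of exon, against 5.85 for the genes tested. Among these silent genes the pooled si-PADI2 over si-control log2 ratio on chromatin ran from 0.73 where the transcript's GC content was at most 40% to -1.09 where it was over 60%. The chromatin change of the tested genes followed the same order, with medians from 0.35 to -0.79, and the poly(A) medians stayed between -0.07 and 0.12. The part of GC content and of this background in each gene's chromatin change was not tested. Genes were also described separately where their mean chromatin level exceeded the 99th percentile of silent genes of like GC content. These genes, 2948 of 13332, are called above the silent level, a rule chosen after the values were seen. The mean took in si-control and si-PADI2 libraries, so a gene that changed on chromatin could pass only through the siRNA where it was higher. Levels given below as a multiple are relative to the pooled level of silent genes of like GC content, not to that percentile. Across these 2948 genes GC content and the chromatin change still correlated (Pearson's r = -0.45, against -0.64 over the 13085 tested genes with a GC value), a description across genes of the same libraries. All 13 luminal markers examined were detected in each of the 8 libraries, and their sum fell from 11177 to 12148 CPM in si-control to 6730 to 7194 CPM in si-PADI2 poly(A) RNA. KRT19 alone lay at 3541 and 2910 CPM in si-control and 1015 and 881 CPM in si-PADI2. Not every marker fell, since EPCAM and TFAP2B had log2 changes of 0.62 and 2.36 and SPDEF of -0.08. On chromatin the same sum was 2906 to 3063 CPM in si-control and 1629 to 2128 CPM in si-PADI2. Of 13 markers of basal, mesenchymal, immune and endothelial cells, 11 stayed under 1 CPM in each poly(A) library, and KRT5 was at 0 in all 4. The sum of these markers was 61.5 to 72.6 CPM in poly(A) RNA, and COL1A1 alone gave 53.5 to 65.7 CPM of it. On chromatin the sum was 298 to 390 CPM, without one marker under 1 CPM. For example PTPRC, an immune cell gene at 0.0217 CPM or less in poly(A) RNA, lay at 41.4 to 64.4 CPM on chromatin.

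**Figure D1:**
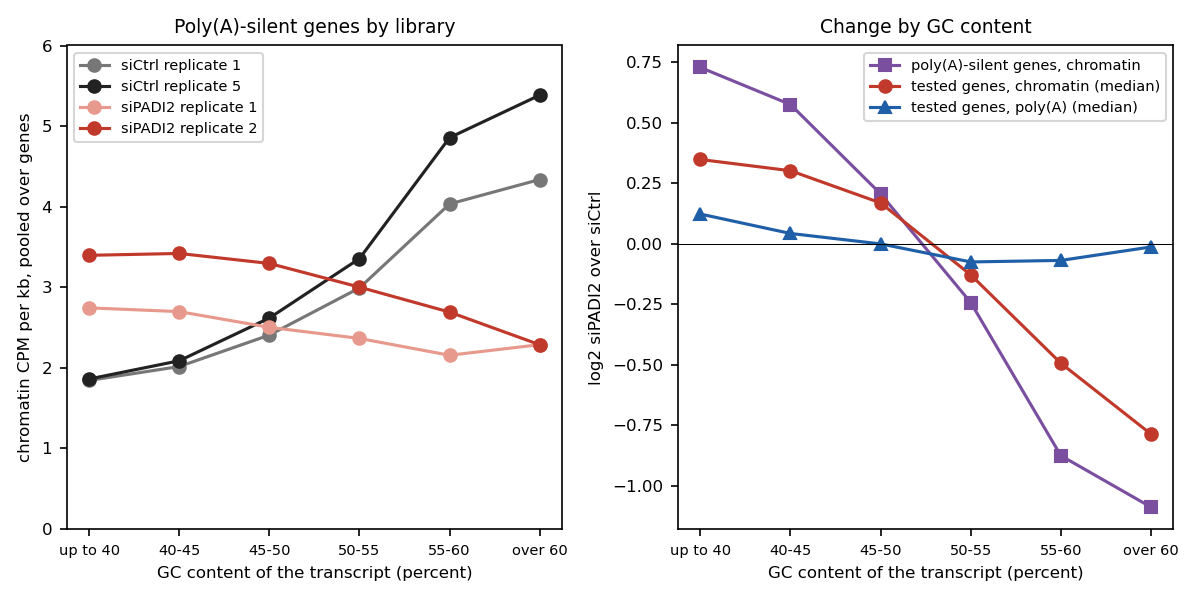
Chromatin RNA of 3850 genes that were silent in poly(A) RNA. The left panel plots the pooled chromatin level (CPM per kb) against GC content of the transcript (percent) for each of the 4 chromatin libraries, and the right panel plots the log2 ratio of si-PADI2 over si-control by GC content for silent genes and for tested genes in both fractions. The chromatin lines fall from 0.73 to -1.09 for silent genes and from 0.35 to -0.79 for tested genes, while the poly(A) medians stay between -0.07 and 0.12.

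PADI2 itself, the targeted gene, lay at 21.6 and 20.3 CPM in si-control and at 1.64 and 1.69 CPM in si-PADI2 poly(A) RNA. On chromatin it lay at 35.9 and 34.1 CPM in si-control and at 9.31 and 17.1 CPM in si-PADI2. The groups did not overlap in either fraction. The poly(A) log2 change was -3.65 ± 0.15 (SE) and the chromatin change -1.42 ± 0.22, so that the difference of 2.23 ± 0.291 passed the test (adjusted p = 3.95e-06) and PADI2 counted as unmatched. Its si-control chromatin level was 1.84 times the pooled level of silent genes of like GC content, and it was not above the silent level. PADI3, a related deiminase, lay at 24.4 and 23 CPM before and 10.4 and 9.51 CPM after knockdown in poly(A) RNA, and at 21.9 and 21.6 before and 9.31 and 11.5 CPM after on chromatin. Its log2 changes were -1.25 in poly(A) RNA and -1.07 on chromatin, which made it a matched gene. PADI3 was not above the silent level either. The 2 deiminases had a median GC content of 55.1%. Silent genes at 50 to 55% GC had a chromatin log2 ratio of -0.24, and those at 55 to 60% of -0.87. The part of this background in the PADI3 chromatin change was not tested.

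Across the 13332 genes, 3868 rose (29%) and 3757 fell (28.2%) in poly(A) RNA, 57.2% in either direction, and 2409 rose (18.1%) and 2832 fell (21.2%) on chromatin, 39.3% in either direction. The difference passed the test in 2424 genes with the chromatin change above the poly(A) change (18.2%) and in 2824 with it below (21.2%), 39.4% in all. At least 2-fold changes of mRNA numbered 899 lower (6.74%) and 743 higher (5.57%). Of the 899 lower mRNAs, 626 were unmatched (4.7% of all genes tested), 189 matched (1.42%) and 84 undecided (0.63%). Of the 743 higher mRNAs, 536 were unmatched (4.02%), 130 matched (0.975%) and 77 undecided (0.578%). The least changed gene inside the 2-fold limit was KIF6 at a log2 change of 1.00002 and the nearest outside was ORAI3 at -0.999992. Because silent genes also gave chromatin RNA, the same classes were counted above the silent level: 136 lower unmatched, 21 lower matched, 46 higher unmatched and 17 higher matched genes. The balance of unmatched genes above the silent level turned to 80 lower and 98 higher with total counts, and to 39 and 62 with filterByExpr. Numbers of genes per class moved with the scaling: scaled by total counts, the lower unmatched genes numbered 415 and the higher unmatched 836, since that scaling raised the median poly(A) change by 0.18 and lowered the median difference by 0.21.

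The class rule fixes much of how the 626 lower unmatched genes look on chromatin, so their levels are given as a description. Their median poly(A) level went from 6.15 to 1.98 CPM per kb, while their median chromatin level was 5.33 CPM per kb both before and after knockdown. The 189 lower matched genes went from 6.92 to 2.57 CPM per kb in poly(A) RNA and from 7.07 to 3.26 on chromatin. Median log2 changes in the lower unmatched genes were -1.42 in poly(A) RNA and -0.04 on chromatin, against 0.01 and 0.03 over all genes tested. On chromatin 434 of the 626 did not pass the test, 107 fell and 85 rose. In 278 of them (44.4%) the whole 95% confidence interval of the chromatin change stayed within 0.5 of the size of the poly(A) change. The share was 4.18% over all genes tested, and the class was already chosen for a chromatin estimate within that limit. The poly(A) libraries sampled whole cultures, so fewer cells with an mRNA and less mRNA per cell cannot be told apart.

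**Figure D2:**
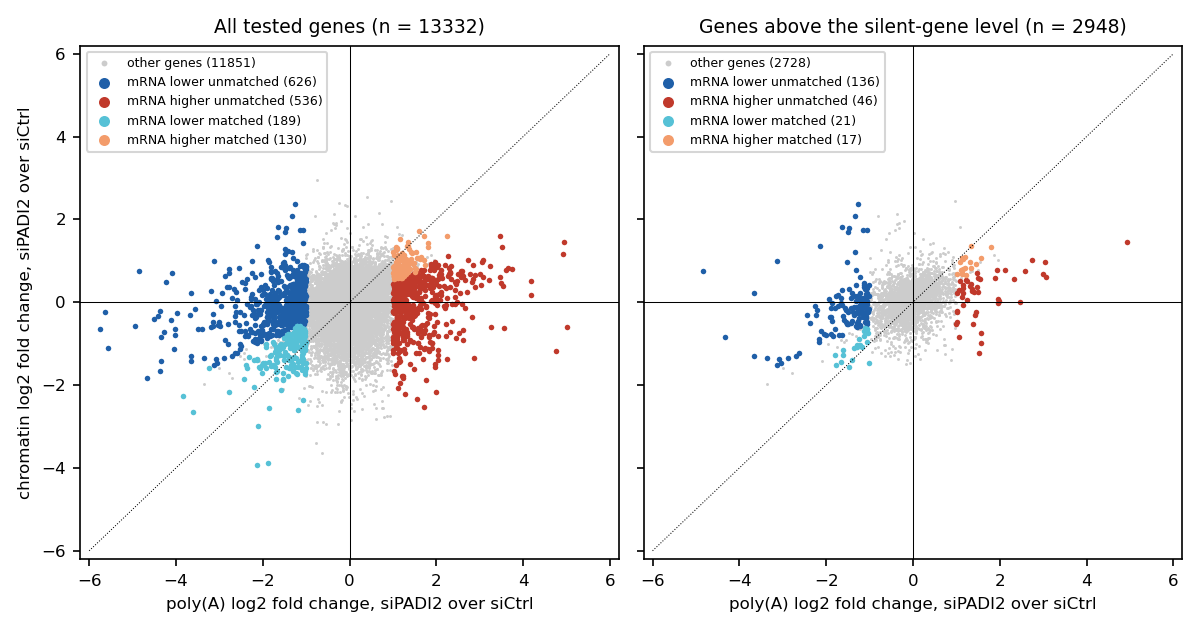
Log2 change of si-PADI2 over si-control in poly(A) RNA (x axis) and chromatin RNA (y axis), for all 13332 genes (left) and the 2948 above the silent level (right). Each point is a gene, coloured by class, and the dotted line marks equal change. The unmatched genes, 626 lower and 536 higher on the left and 136 and 46 on the right, lie along the horizontal axis, and the matched genes lie near the dotted line.

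Among lower unmatched genes above the silent level, REEP3, an endoplasmic reticulum shaping protein (chr10:65281123-65384883, hg19, + strand), showed the pattern at high counts. Its poly(A) level was 152 and 168 CPM in si-control and 33.3 and 35.3 CPM in si-PADI2, and its chromatin level was 51.9 and 44.5 CPM and then 44.2 and 41 CPM. The poly(A) groups lay far apart and the chromatin groups lay close to each other, with the si-PADI2 values just under the si-control ones. The poly(A) log2 change was -2.22 ± 0.108 (SE), the chromatin change -0.18 ± 0.151 (adjusted p = 0.369) with a 95% interval from -0.49 to 0.14, and the difference 2.05 ± 0.188 (adjusted p = 3.92e-08). The REEP3 chromatin level was 5 times that of silent genes of like GC content in si-control and 2.66 times in si-PADI2. GHR, the growth hormone receptor (chr5:42423879-42721979, + strand), lay at 152 and 164 and then 47.5 and 44.7 CPM in poly(A) RNA, and at 69 and 55.4 and then 73.7 and 65.3 CPM on chromatin. Its chromatin groups overlapped, and its log2 change was -1.78 in poly(A) RNA and 0.16 on chromatin (95% interval -0.13 to 0.46). SLC39A6, an estrogen-responsive zinc transporter (chr18:33688495-33709348, - strand), lay at 131 and 136 and then 24.3 and 24.9 CPM in poly(A) RNA, and at 41.6 and 45.2 and then 39.2 and 30.7 CPM on chromatin. That is a log2 change of -2.44 in mRNA and of -0.31 on chromatin, where it did not pass the test (adjusted p = 0.119).

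Intracellular proteins of varied function gave the same pattern. RAB5C, a small GTPase of early endosomes, lay at 193 and 191 and then 55 and 50.4 CPM in poly(A) RNA, and at 43.8 and 38.3 and then 38.8 and 42.2 CPM on chromatin. TOR1AIP1, a protein of the inner nuclear membrane, lay at 180 and 196 and then 57.5 and 62.4 CPM in poly(A) RNA, and at 92.5 and 75.8 and then 89.2 and 90.4 CPM on chromatin. In both genes the chromatin groups overlapped, with log2 changes of -0.02 and 0.10. FCF1, a factor of ribosomal RNA processing, lay at 52 and 60.7 and then 18.3 and 17.9 CPM in poly(A) RNA, and at 31.9 and 36.1 and then 37.6 and 45.6 CPM on chromatin. SPRYD4, SPG21 and BORCS7, the last a subunit of a complex that positions lysosomes, had poly(A) changes of -1.93, -1.72 and -1.47 and chromatin changes of 0.07, 0.18 and 0.33. None of the 3 chromatin changes passed the test. CDC6, which loads the replicative helicase at origins, lay at 24.3 and 26.7 and then 7.03 and 6.84 CPM in poly(A) RNA, and at 32.6 and 37.1 and then 24 and 40.1 CPM on chromatin. The 2 si-PADI2 chromatin libraries fell on either side of both si-control values, so the chromatin change of -0.13 had a wide 95% interval, from -0.53 to 0.27. SAMHD1, which degrades deoxynucleotides, and PBLD fell by 1.31 and 1.23 on the log2 scale in poly(A) RNA but rose on chromatin, by 0.42 and 0.61 (adjusted p = 0.0377 and 0.00395). With GC offsets these chromatin changes were 0.10 and 0.26 and neither passed (adjusted p = 0.646 and 0.167).

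**Figure D3:**
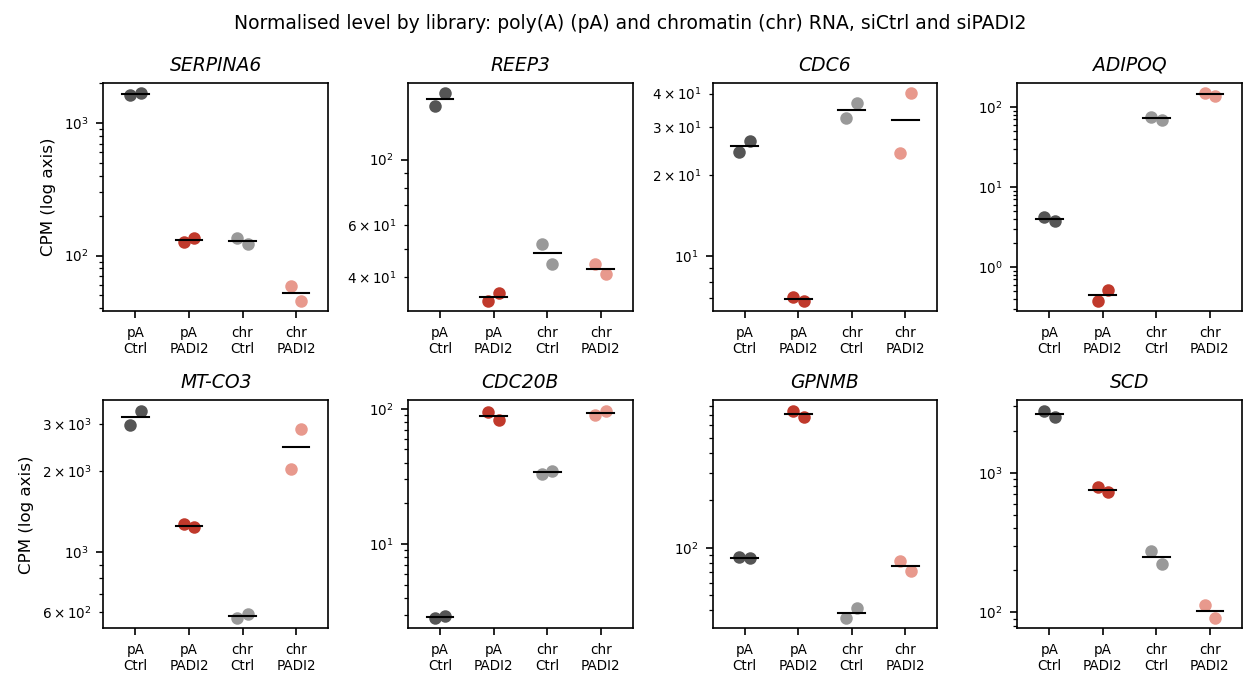
Normalised level (CPM, log axis) of 8 genes in each library: poly(A) and chromatin RNA, si-control and si-PADI2. Points are libraries and bars are means of 2. REEP3 and CDC6 fell in poly(A) RNA with overlapping or nearby chromatin values, SERPINA6 fell in both but less on chromatin, ADIPOQ and MT-CO3 moved in opposite directions, CDC20B and GPNMB rose more in poly(A) RNA, and SCD fell in both.

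Some of the lower unmatched genes above the silent level encode secreted proteins. SERPINA6, the corticosteroid-binding globulin (chr14:94770585-94789731, - strand), lay at 1630 and 1677 and then 127 and 137 CPM in poly(A) RNA, and at 136 and 122 and then 58.6 and 45.6 CPM on chromatin. Neither pair of groups overlapped, yet mRNA was 12.6-fold lower and chromatin RNA 2.46-fold lower. The difference was 2.35 ± 0.217 (SE; adjusted p = 4.06e-08). CLEC3A, a C-type lectin, lay at 203 and 223 and then 20.4 and 21.3 CPM in poly(A) RNA, and at 91.4 and 84.5 and then 32.2 and 36.7 CPM on chromatin. Its log2 changes were -3.35 and -1.35. EFEMP1, an extracellular matrix fibulin, changed by -2.38 in poly(A) RNA and by -0.50 on chromatin (adjusted p = 0.0112). ANGPTL4, an inhibitor of lipoprotein lipase, lay at 31.2 and 27.5 and then 5.62 and 6.56 CPM in poly(A) RNA, and at 35.2 and 32.1 and then 36.5 and 26.5 CPM on chromatin. Its chromatin groups overlapped. CHRD, an antagonist of bone morphogenetic proteins, lay at 14.3 and 13 and then 0.619 and 0.717 CPM in poly(A) RNA, and at 86.8 and 110 and then 54.3 and 56.3 CPM on chromatin.

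ADIPOQ, which encodes the adipocyte hormone adiponectin (chr3:186560463-186576252, + strand), had the largest difference among lower unmatched genes above the silent level with a mean of at least 30 chromatin counts. In poly(A) RNA it was scarce, at 4.2 and 3.77 CPM in si-control and 0.377 and 0.513 CPM in si-PADI2. On chromatin it lay at 75.5 and 69.3 CPM in si-control and at 148 and 139 CPM in si-PADI2. All 4 groups were apart from each other, with an 8.75-fold fall of mRNA and a 1.99-fold rise on chromatin. The difference was 4.12 ± 0.209 (adjusted p = 1.26e-11). PRR11 and SPC25, the latter a subunit of the kinetochore complex that binds microtubules, also moved in opposite directions. PRR11 lay at 12.2 and 12.1 and then 4.72 and 5.11 CPM in poly(A) RNA, and at 34.6 and 31 and then 52.8 and 60.6 CPM on chromatin. SPC25 lay at 5.04 and 6.02 and then 2.08 and 1.84 CPM in poly(A) RNA, and at 12 and 10.7 and then 22.1 and 22.2 CPM on chromatin. With GC offsets the SPC25 chromatin change was 0.57 and no longer passed the test (adjusted p = 0.0554). Over all genes tested, 395 fell in poly(A) RNA and rose on chromatin with the difference passing as well (2.96%), and 656 did the reverse (4.92%).

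The largest differences among lower unmatched genes with at least 30 chromatin counts belonged to genes whose chromatin level was near that of silent genes. SRARP, a steroid receptor-associated protein, lay at 92.9 and 91.8 and then 2.14 and 1.6 CPM in poly(A) RNA, and at 15.7 and 19 and then 12.4 and 17.5 CPM on chromatin. Its mRNA was 49.5-fold lower and its chromatin groups overlapped, but the chromatin level was only 1.8 times that of silent genes of like GC content in si-control and 1.83 times in si-PADI2. FMOD, a collagen-binding proteoglycan, had log2 changes of -5.75 in poly(A) RNA and -0.66 on chromatin, at 1.15 times the pooled level of such silent genes in si-control. TNS4, an adhesion protein, had -5.58 and -1.10, at 1.83 times, and AZGP1, a secreted zinc-binding glycoprotein, -3.97 and -0.27, at 1.82 times. The other lower genes named by rank were AGXT2, FGD5, GSTM5, RPS6KL1, SLCO2A1 and IYD, with poly(A) changes from -2.87 to -4.94 and chromatin changes from -0.71 to 0.70. The part of the chromatin RNA seen in silent genes in these values was not tested.

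Short words in 3′ untranslated regions (3′ UTRs) were described next, because an earlier scan of the poly(A) comparison had singled out the 7-base words ATCCACA and TACCATG in mRNAs that fell. The poly(A) values, and the classes that rest on them, are thus not independent of that choice. The chromatin and R1810A libraries did not enter it. The sense strand of the longest annotated 3′ UTR was searched. Windows of 30 bases are shown from 7 lower unmatched genes above the silent level that hold a word and have some of the largest differences, with the word in capitals (GENCODE 29 transcripts, GRCh38).
ADIPOQ, chr3:186855955-186855984, + strand: taatcagttttATCCACAgaaacattttca
REEP3, chr10:63621158-63621187, + strand: atgaaacacaaATCCACAgtatacttgaaa
SPRYD4, chr12:56478180-56478209, + strand: caccgttgaccATCCACAgtgcacagggag
SPRYD4, chr12:56469791-56469820, + strand: atttcctaggcTACCATGggtgtatcttcc
FCF1, chr14:74736608-74736637, + strand: ttccatattgtATCCACAatttatgatatc
RAB5C, chr17:42125366-42125395, - strand: ccagcaagagcATCCACAtcctcactttgt
PBLD, chr10:68283750-68283779, - strand: agtaagactccATCCACAcacacacacaca
PBLD, chr10:68282751-68282780, - strand: actttaattgtTACCATGttttctattttt
BORCS7, chr10:102864039-102864068, + strand: ttaaatgacatTACCATGagtctgttgtca
In the 3759 bases of the ADIPOQ 3′ UTR the only copy of ATCCACA stands at position 1262. ADIPOQ also holds TACCATG at position 3361, which is not shown. In REEP3 the first copy of ATCCACA stands at position 300 of 4254. CDC6, not shown either, holds TACCATG at position 550 of 2656. Neither PADI2 nor SERPINA6 nor GHR holds either word.

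Of all 18655 annotated 3′ UTRs, 9.79% held ATCCACA, 8.33% TACCATG and 16.4% at least 1 of them. Among lower unmatched genes 194 of 550 with a 3′ UTR held a word (35.3%), against 2165 of 11849 genes tested (18.3%). Above the silent level the share was 56 of 122 (45.9%). In lower matched genes it was 11.4%, in higher unmatched genes 15.4% and in higher matched genes 24.1%. The lower classes require a fall of mRNA, by which the words were found, so a high share there was favoured in advance. The share also varied with GC content, from 27.1% of tested genes at up to 40% GC to 5.97% at over 60%. Lower matched genes had a median GC content of 58.3%. Per kb of 3′ UTR there were 0.212 words in lower unmatched genes, 0.115 over all tested and 0.0914 in lower matched genes, whose 3′ UTRs were shorter. Genes with 2 or more words had a median log2 change of -0.16 in poly(A) RNA and 0.19 on chromatin. With 1 word the medians were -0.09 and 0.11, and without a word 0.02 and -0.01. Above the silent level, the 95 genes with 2 or more words had medians of -0.35 and 0.10, and the 2285 without a word -0.05 and 0.06. When genes were split into 3 equal sets by 3′ UTR length, in the shortest set the 165 genes with a word had medians of -0.29 in poly(A) RNA and -0.18 on chromatin, and the 3785 without one -0.03 and -0.21. Genes with a word were poorer in GC, at a median of 44.1% against 49.4%, which is the direction in which chromatin values rose. With GC offsets in the fit, the medians of genes with a word were -0.13 in poly(A) RNA and -0.09 on chromatin, against 0.03 and -0.05 without one, so that the median difference between these sets of genes shrank from 0.26 to 0.13. Above the silent level the medians with GC offsets were -0.30 and -0.20 with a word and -0.07 and -0.12 without one, so the chromatin median was then lower in genes with a word. By library, the median normalised level of genes with a word minus that of genes without one, each gene centred on its mean over the 8 libraries, was lower in both si-PADI2 poly(A) libraries than in both si-control ones (-0.23 and -0.18 against -0.04 and -0.00). On chromatin it was higher in both (0.17 and 0.20 against 0.07 and -0.01).

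**Figure D4:**
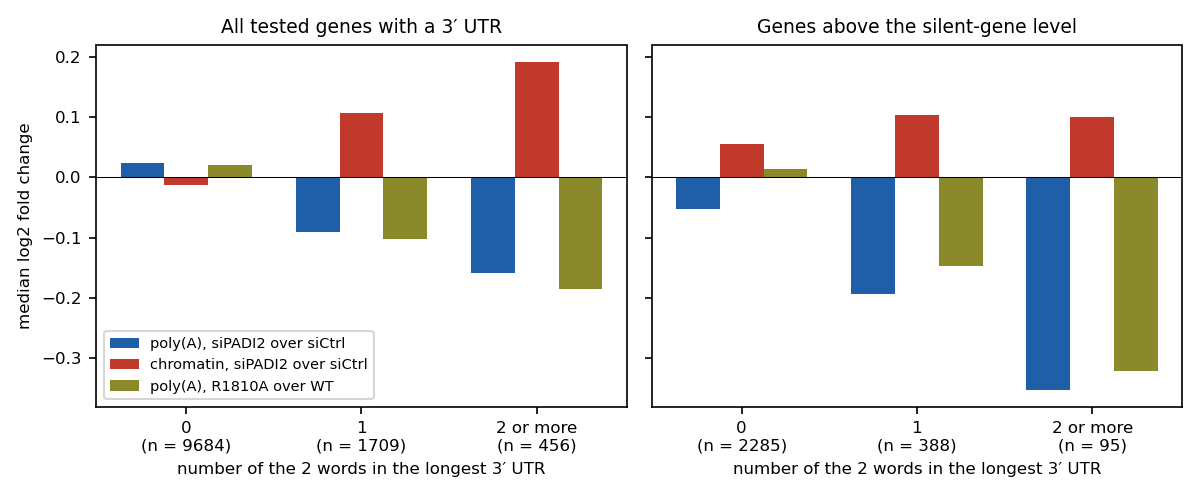
Median log2 change of genes by the number of the words ATCCACA and TACCATG in their longest 3′ UTR, for all tested genes (left) and those above the silent level (right). Bars are medians for poly(A) RNA and chromatin RNA (si-PADI2 over si-control) and for poly(A) RNA of R1810A over WT. Poly(A) medians fall from 0.02 without a word to -0.16 with 2 or more, and chromatin medians without GC offsets do not fall with them.

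The 13 mRNAs encoded by mitochondrial DNA, which specify subunits of the respiratory chain and of ATP synthase, had the largest median difference of the 22 lists, at 2.26. In poly(A) RNA 8 fell and none rose, on chromatin 12 rose and none fell, and the difference passed the test in all 13. MT-CO3, a cytochrome c oxidase subunit, lay at 2979 and 3357 CPM in si-control and 1273 and 1238 CPM in si-PADI2 poly(A) RNA. On chromatin it lay at 570 and 588 CPM in si-control and at 2033 and 2871 CPM in si-PADI2. MT-ATP6, an ATP synthase subunit, lay at 3267 and 3612 and then 1104 and 1099 CPM in poly(A) RNA, and at 692 and 791 and then 2022 and 3190 CPM on chromatin. No groups overlapped in either gene, and the differences were 3.42 ± 0.258 and 3.46 ± 0.279. MT-ND3, MT-ATP8, MT-CYB and MT-ND2 were the other unmatched members, with poly(A) changes from -1.07 to -1.49 and chromatin changes from 1.69 to 1.79. MT-CO1 lay at 10910 and 11674 and then 9822 and 9853 CPM in poly(A) RNA, a log2 change of -0.20, and rose on chromatin from 1058 and 949.6 to 3310 and 4559 CPM. MT-ND6, whose gene lies on the other strand of the mitochondrial genome, was the member that did not pass on chromatin (2572 and 2578 and then 2554 and 4334 CPM). Mitochondria are not part of chromatin, and the share of all counts from the mitochondrial genome went from 1.92% and 2.01% to 4.45% and 6.2% in chromatin libraries and from 5.67% and 6.13% to 4.61% and 4.68% in poly(A) libraries. How much mitochondrial RNA was carried into the chromatin pellets was not tested. MTCO3P12, a nuclear copy of mitochondrial sequence on chromosome 1 that shares reads with MT-CO3 and is therefore uncertain, changed by -1.27 and 2.36.

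Higher mRNAs without a matching change on chromatin included genes of transcription factors, receptors and enzymes. SOX2, a transcription factor of stem and progenitor cells (chr3:181429714-181432221, + strand), lay at 12.9 and 12.2 CPM in si-control and at 69.9 and 68.5 CPM in si-PADI2 poly(A) RNA. On chromatin it lay at 25.7 and 29 and then 26.8 and 28.6 CPM. Its chromatin groups overlapped, and the log2 changes were 2.47 and 0.01 (95% interval -0.34 to 0.36). PERP, a desmosomal membrane protein, lay at 50.8 and 55.8 and then 217 and 198 CPM in poly(A) RNA, and at 50.4 and 41.4 and then 51.6 and 38.8 CPM on chromatin. Its chromatin groups overlapped as well. MDK, the growth factor midkine, had log2 changes of 1.43 and -0.31, and CFAP300, a cilia assembly factor, of 1.96 and 0.07. None of these chromatin changes passed the test.

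In other higher mRNAs chromatin RNA rose too, but by less. CYP1B1, a monooxygenase that hydroxylates estrogens, lay at 45.5 and 50.7 and then 349 and 426 CPM in poly(A) RNA, and at 81.5 and 70.4 and then 141 and 102 CPM on chromatin. GPNMB, a transmembrane glycoprotein, lay at 86.8 and 86.3 and then 745 and 681 CPM in poly(A) RNA, and at 35.7 and 41.5 and then 81.8 and 70.8 CPM on chromatin. GPNMB mRNA was thus 8.24-fold higher and its chromatin RNA 1.98-fold higher, without overlap in either fraction. CDC20B, a gene of multiciliated cells (chr5:54408799-54469005, - strand), lay at 2.83 and 2.92 and then 94.7 and 82.8 CPM in poly(A) RNA. On chromatin it lay at 32.9 and 34.9 and then 90.4 and 96.8 CPM. The mRNA was 30.7-fold higher and the chromatin RNA 2.76-fold higher, and the difference was -3.48 ± 0.182 (SE; adjusted p = 1.47e-11). CDC20B stood at 2.98 times the pooled level of silent genes of like GC content in si-control and 7.14 times in si-PADI2. Its si-control level alone, 7.5 CPM per kb, was under the 99th percentile of silent genes at 45 to 50% GC (9.39). ATP13A4, CNTN1 and NAALADL2 also rose in both, by 2.57, 3.07 and 2.74 in poly(A) RNA and by 0.75, 0.62 and 1.02 on chromatin. Among the 46 higher unmatched genes above the silent level, 16 rose on chromatin, 6 fell and 24 did not pass. The silent-level rule averaged both siRNAs, so genes that rose on chromatin could pass through si-PADI2 and the split is only a description. Over all 536, 99 rose, 115 fell and 322 did not pass.

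Higher unmatched genes near the silent level had the largest negative differences. The limit of 1 CPM was a mean over si-control and si-PADI2, so an mRNA scarce in si-control could enter through si-PADI2 alone. For such genes, FOXN4 among them, a large rise of mRNA was favoured in advance. FOXN4, a forkhead transcription factor, lay at 0.151 and 0.13 and then 3.84 and 3.66 CPM in poly(A) RNA, and at 24.9 and 31.2 and then 13.2 and 11.5 CPM on chromatin. RHBDL3, a rhomboid-family membrane protein, lay at 1.23 and 1.44 and then 43.9 and 45.1 CPM in poly(A) RNA, and at 25.6 and 34 and then 17.5 and 22.2 CPM on chromatin. In both, mRNA rose and chromatin RNA fell without overlap, and the chromatin levels were 1.24 to 1.82 times the pooled level of silent genes of like GC content. With GC offsets the RHBDL3 chromatin change was -0.23 and no longer passed the test (adjusted p = 0.402). The other genes named by rank were DUSP13, SCNN1G, FOXJ1, MYO7A, EPHA4, BMP7, IGSF10, NOL4, KRT83 and ENSG00000255050, with poly(A) changes from 1.54 to 4.92 and chromatin changes from -2.53 to 1.15. Their si-control chromatin levels were 0.625 to 2.87 times the pooled level of silent genes of like GC content. Median levels of all 536 genes went from 0.731 to 2.09 CPM per kb in poly(A) RNA and from 4.41 to 4.12 CPM per kb on chromatin.

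Matched genes changed in the same direction in both fractions. SCD, the stearoyl-CoA desaturase, lay at 2793 and 2502 and then 794 and 724 CPM in poly(A) RNA, and at 274 and 222 and then 113 and 91.3 CPM on chromatin. Its log2 changes were -1.80 and -1.28, and the difference of 0.53 did not pass (adjusted p = 0.0752). KRT19, a luminal keratin, lay at 3541 and 2910 and then 1015 and 881 CPM in poly(A) RNA, and at 985 and 1079 and then 403 and 321 CPM on chromatin. KRT19 changed by -1.77 and -1.51, PREX1 by -1.67 and -1.45, ZMIZ1 by -1.40 and -1.40 and TFF3, a trefoil peptide, by -1.47 and -1.56. All 5 were above the silent level, and none of their differences passed the test. RRM1, a ribonucleotide reductase subunit, was matched as well, with -1.36 and -1.11. FRK, a tyrosine kinase, lay at 8.78 and 9.36 and then 22.8 and 23.4 CPM in poly(A) RNA, and at 78 and 66.5 and then 177 and 194 CPM on chromatin, with log2 changes of 1.34 and 1.36. TMEM45A, CFAP54 and the long noncoding RNA SOX2-OT changed by 1.80, 1.57 and 1.46 in poly(A) RNA and by 1.32, 1.08 and 0.93 on chromatin. SOX2-OT is the transcript unit that contains SOX2, whose own mRNA rose without a change on chromatin that passed the test. The genes overlap on the same strand, so reads between them are uncertain. The matched genes of largest poly(A) change without regard to the silent level were IL17REL (-3.60 and -2.64), LINGO4 (-2.78 and -2.16), FLT4 (-2.44 and -1.85), PSCA (-2.39 and -1.51), DNAJC12 (2.24 and 1.59), KLHL13 (1.81 and 1.43) and FMNL2 (1.75 and 0.90). Lower matched genes had a median GC content of 58.3% and higher matched genes of 39.8%, which lie on the sides where silent genes fell and rose, and with GC offsets only 74 of the 189 and 30 of the 130 remained in their class.

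The reverse pattern, a chromatin change of at least 2-fold with a poly(A) log2 change of at most 0.25 in size, was found in 402 genes (3.02%), of which 346 were lower and 56 higher on chromatin. TMEM86B, a lysoplasmalogen hydrolase, lay at 2.51 and 1.77 and then 1.94 and 2.27 CPM in poly(A) RNA, and at 13.2 and 16.1 and then 1.94 and 2.13 CPM on chromatin. PLEKHO2, TPSP2 and FAM86EP had chromatin changes of -2.36, -2.33 and -2.28. DAPP1, an adaptor of B cell receptor signalling, lay at 8.48 and 8.63 and then 7.28 and 9.23 CPM in poly(A) RNA, and at 5.34 and 4.48 and then 11.2 and 15.8 CPM on chromatin. MRPL20-DT and TCAF2 changed by 1.51 and 1.29 on chromatin. Above the silent level were 12 of the 346 lower and 11 of the 56 higher genes, against 22.1% of all tested, and median GC content was 61.5% in the lower and 41.9% in the higher set.

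Gene lists fixed from textbook functions, with earlier results of these data known, were described by counts. The shares over all genes tested stand beside each list. They were 28.2% lower and 29% higher in poly(A) RNA, and 21.2% lower and 18.1% higher on chromatin. For the difference they were 18.2% above and 21.2% below. A list count near these shares is not a result about the list. Among secreted and membrane proteins of luminal cells, 16 of 19 fell and 1 rose in poly(A) RNA, and 9 fell and 2 rose on chromatin. The difference passed the test in 14 with the chromatin change above and in 1 with it below, and the median changes were -1.47 and -0.59. PIP, PRLR and SCUBE2 fell by 3.05, 2.70 and 3.15 in poly(A) RNA and had chromatin changes of -1.47, -1.31 and -0.27. AGR2, a disulfide isomerase of secretory cells, fell by 0.79 in poly(A) RNA and rose by 0.49 on chromatin, where it no longer passed with GC offsets (adjusted p = 0.577), whereas TFF3, CLU and CLDN8 were matched. In the estrogen response list, 17 of 28 fell and 4 rose in poly(A) RNA, with medians of -0.60 and -0.22 in the fractions. The median difference of 0.34 turned to -0.05 with no filter, where the medians were -0.37 and -0.40. PGR, the progesterone receptor, lay at 295 and 300 and then 84.6 and 103 CPM in poly(A) RNA, and at 174 and 125 and then 160 and 135 CPM on chromatin. CCND1, cyclin D1, lay at 119 and 111 and then 19.1 and 20.3 CPM in poly(A) RNA, and at 42.6 and 43.4 and then 31.4 and 21.3 CPM on chromatin. PGR chromatin groups overlapped and those of CCND1 did not (log2 change -0.70, adjusted p = 0.00331). RET, IGFBP4 and TFF3 were matched. ADCY9, an adenylate cyclase, went the other way, with 1.08 in poly(A) RNA and -1.09 on chromatin. Neither CCND1 nor ADCY9 was above the silent level.

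Genes of the multiciliated cell program rose in poly(A) RNA, 11 of 15 with 1 lower, and were divided on chromatin, with 6 higher and 5 lower. With GC offsets 4 were higher and 2 lower there, and 2 were higher and 3 lower without chromatin si-PADI2 replicate 2. The difference was below zero and passed in 12. FOXJ1, the master transcription factor of motile cilia, lay at 2.62 and 2.08 and then 28.6 and 25 CPM in poly(A) RNA, and at 25.4 and 32.3 and then 19.4 and 18.3 CPM on chromatin. CCNO, a cyclin needed to amplify centrioles, lay at 18.3 and 16.8 and then 76.1 and 62.1 CPM in poly(A) RNA, and at 20.4 and 27 and then 31.4 and 16.6 CPM on chromatin. MCIDAS, TEKT1, RSPH1 and DNAAF1 rose by 2.31, 2.81, 1.53 and 1.45 in poly(A) RNA, with chromatin changes from -0.36 to 0.61. The list's median chromatin change of 0.11 turned to -0.03 with the wider filterByExpr gene set and to -0.08 with no filter, and 3 of its 15 genes were above the silent level. FOXJ1 and TEKT1 were not among these. TEKT1 lay at 0.238 and 0.224 CPM in si-control poly(A) RNA, so it entered the comparison through si-PADI2.

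Interferon response genes fell in poly(A) RNA, 24 of 36 with 1 higher, against 28.2% and 29% of all genes tested. Chromatin counts were 6 lower and 6 higher, against 21.2% and 18.1% of all genes, and are not a result about the list. On chromatin 1 fell and 3 rose without chromatin si-control replicate 5, and 3 fell and 1 rose without chromatin si-PADI2 replicate 2. With GC offsets 2 fell and 4 rose there, and with filterByExpr or no filter 9 fell in poly(A) RNA. MX2, an antiviral GTPase, lay at 39.6 and 39.6 and then 7.62 and 9.87 CPM in poly(A) RNA, and at 56.1 and 55.3 and then 47.3 and 71.2 CPM on chromatin. OAS1, a sensor of double-stranded RNA, lay at 842 and 833 and then 359 and 469 CPM in poly(A) RNA, and at 20.4 and 14.2 and then 21.3 and 26 CPM on chromatin. IFIT3 fell by 0.56 and rose by 1.19 on chromatin, a rise that did not pass with GC offsets (adjusted p = 0.0995), while IFITM1 and OASL were among the matched genes. IFITM1 has near-identical relatives and its counts are uncertain. The list's medians were -0.52 and 0.03, and the chromatin median went to between -0.16 and -0.00 with filterByExpr, no filter or GC offsets, without 6 of the libraries in turn, and to -0.42 when only genes above the silent level were fitted. Only 5 of the 36 were above that level, and MX2, OAS1 and IFIT3 were not among them.

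Most cell cycle genes fell in poly(A) RNA. In the G1/S and DNA replication list 26 of 34 fell in poly(A) RNA with 1 higher, and 16 fell on chromatin with 3 higher. In the G2/M and mitosis list 26 of 32 fell with 1 higher, and 12 fell on chromatin with none higher. When either chromatin si-PADI2 library was left out, 5 of this list fell on chromatin. With filterByExpr 12 and 10 genes of these lists fell in poly(A) RNA, and with no filter 11 and 6. CDC6, GINS1 and RRM2 had the largest differences of the first list, at 1.75, 1.69 and 1.54, and KIF23, a motor of the central spindle, that of the second, at 1.70. KIF23 lay at 34.5 and 38.1 and then 13.1 and 13.4 CPM in poly(A) RNA, and at 42.3 and 44.6 and then 44.2 and 59.3 CPM on chromatin. GINS1, RRM2 and KIF23 were not above the silent level. TK1, TYMS, MCM2 and RRM1 were matched in the first list, and MKI67, AURKB, CCNA2 and KIF2C in the second. Median differences of 0.21 and 0.37 turned to -0.18 and -0.02 with no filter, and that of the first list to -0.13 with filterByExpr.

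In hypoxia and glycolysis, 21 of 28 fell and 3 rose in poly(A) RNA, and 12 fell and 1 rose on chromatin. EGLN3, an oxygen-sensing hydroxylase, lay at 107 and 119 and then 13.6 and 15.3 CPM in poly(A) RNA, and at 63.5 and 58 and then 59.7 and 54.2 CPM on chromatin. Its log2 change was -2.97 in mRNA and -0.09 on chromatin, where the groups overlapped. EGLN3 was not above the silent level. BNIP3 and DDIT4 were matched, with -1.14 and -0.81 and with -1.17 and -1.08. In cholesterol synthesis 17 of 23 fell and 2 rose, and 9 fell and 2 rose on chromatin. With filterByExpr 8 genes of each list fell in poly(A) RNA, and with no filter 8 and 7. HSD17B7, NSDHL and ACAT2 had poly(A) changes of -1.12, -1.09 and -1.12 and chromatin changes of 0.62, 0.19 and 0.10. None of these genes was above the silent level. With GC offsets the HSD17B7 chromatin change was 0.25 and did not pass the test (adjusted p = 0.28). The median differences of 0.15 and 0.30 turned to -0.19 and -0.07 with filterByExpr, to -0.25 and -0.12 with no filter, and that of hypoxia to -0.06 with total counts.

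Of 52 replication-dependent histones listed, 21 were found by symbol and 11 were tested, so the list is partial. In poly(A) RNA 5 of the 11 rose and 1 fell, and 10 fell on chromatin. With GC offsets 5 fell on chromatin, and 6 without chromatin si-PADI2 replicate 2. H2BC5 lay at 23.4 and 22.8 and then 71.4 and 66.1 CPM in poly(A) RNA, and at 30.4 and 30.9 and then 17.1 and 13.7 CPM on chromatin. H1-4 and H2BC4 moved the same way, by 1.52 and 0.72 in poly(A) RNA and by -1.23 and -1.04 on chromatin. With GC offsets the H1-4 chromatin change no longer passed (adjusted p = 0.101). H1-4 lay at 0.844 and 0.304 CPM in si-control poly(A) RNA, so it entered the comparison through si-PADI2. Most histone mRNA of this kind lacks a poly(A) tail, so a poly(A) library holds the minor polyadenylated forms. Cytosolic ribosomal protein genes numbered 75, of which 25 were lower and 1 higher in poly(A) RNA and 35 lower and none higher on chromatin, against 28.2% and 21.2% of all genes lower. In poly(A) RNA 6 fell and 5 rose with total counts, 1 fell with filterByExpr, none with no filter, 12 without poly(A) si-control replicate 1, 14 without poly(A) si-control replicate 2 and 5 without poly(A) si-PADI2 replicate 2. On chromatin 14 fell without chromatin si-PADI2 replicate 2, with filterByExpr or with no filter, and 19 without chromatin si-control replicate 5. They have many processed pseudogenes, so their counts are uncertain. Among nuclear long noncoding RNAs, NEAT1, the scaffold of paraspeckles, lay at 398 and 375 and then 127 and 163 CPM in poly(A) RNA, and at 958 and 708 and then 927 and 871 CPM on chromatin. NEAT1 thus fell by 1.42 in poly(A) RNA with overlapping chromatin groups (log2 change 0.11). MALAT1, of nuclear speckles, lay at 325 and 334 and then 227 and 291 CPM in poly(A) RNA and at 9743 and 6533 and then 14559 and 11122 CPM on chromatin. Immediate early genes numbered 23, with 9 lower and 5 higher in poly(A) RNA, against 28.2% and 29% of all genes. Lower on chromatin were 6 of them, against 21.2%. With filterByExpr 5 were lower in poly(A) RNA. DUSP6, a phosphatase induced by ERK signalling, lay at 4.41 and 5.05 and then 0.536 and 0.691 CPM in poly(A) RNA, and at 26.9 and 22.8 and then 30.6 and 26.9 CPM on chromatin. DUSP6 was not above the silent level.

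**Figure D5:**
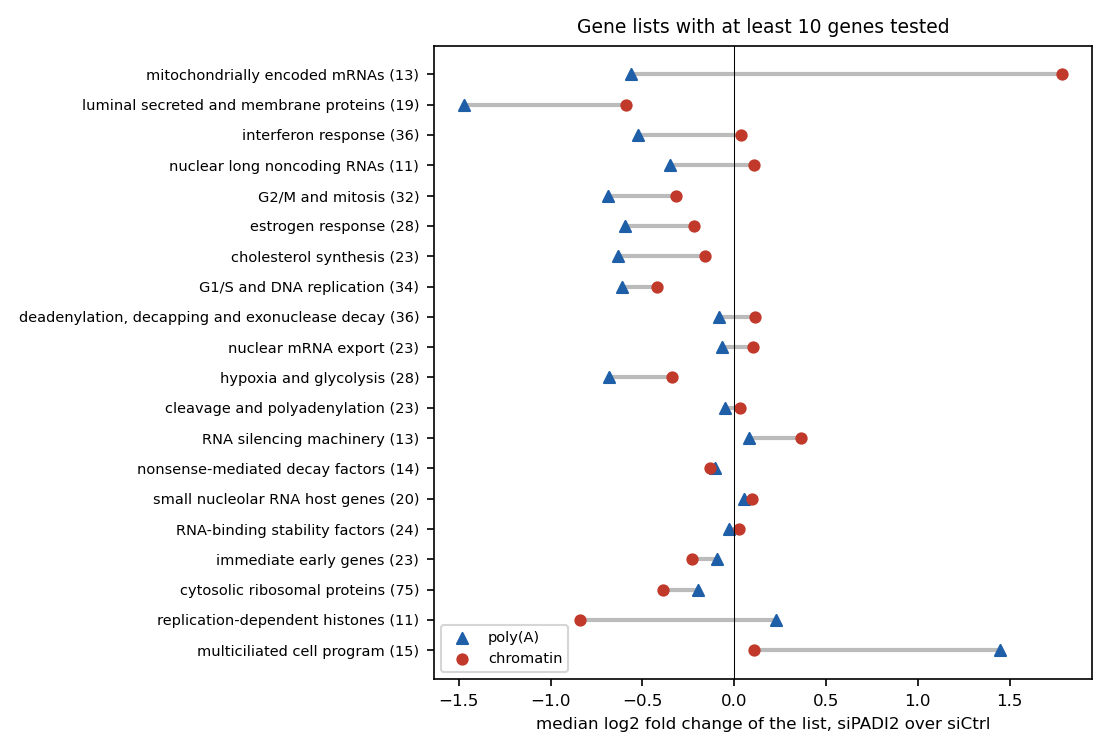
Median log2 change of si-PADI2 over si-control in poly(A) RNA (triangles) and chromatin RNA (circles) for lists with at least 10 tested genes, whose number is in parentheses. The mitochondrially encoded mRNAs lie farthest apart, at -0.56 and 1.79, and multiciliated genes lie at 1.45 and 0.11.

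Genes of the machinery that acts between transcription and steady-state mRNA are given with the background that 28.2% of all genes fell and 29% rose in poly(A) RNA. On chromatin the shares were 21.2% and 18.1%. A count near these shares is not a result about its list, and no list was tested. Of 36 genes of deadenylation, decapping and exonuclease decay, 9 fell and 12 rose in poly(A) RNA, and 4 fell and 8 rose on chromatin. Of 13 RNA silencing genes, 3 fell and 5 rose, and 2 fell and 6 rose on chromatin. TNRC6A, a scaffold that joins Argonaute to deadenylases, lay at 150 and 143 and then 75.2 and 88.4 CPM in poly(A) RNA, and at 67.6 and 52.2 and then 83.4 and 104 CPM on chromatin. TNRC6A was not above the silent level, and with GC offsets its chromatin change of 0.38 did not pass the test (adjusted p = 0.0518). AGO4 was the unmatched member, with 1.21 in poly(A) RNA and 0.42 on chromatin (adjusted p = 0.0666). AGO2, the slicing Argonaute, had -0.15 in poly(A) RNA and fell by 0.87 on chromatin. Of 23 nuclear export genes, 8 fell and 3 rose in poly(A) RNA, among them NUP153, at -0.73. Of 23 cleavage and polyadenylation genes, 2 fell and 2 rose. CNOT6, a deadenylase, lay at 148 and 152 and then 77.7 and 82.2 CPM in poly(A) RNA, and at 56.1 and 47.1 and then 50.4 and 53.3 CPM on chromatin. Of 24 RNA-binding stability factors, 5 fell and 5 rose. IGF2BP3, an oncofetal factor that protects mRNAs, lay at 0.8 and 0.709 and then 5.42 and 5.53 CPM in poly(A) RNA, and at 40.6 and 55.3 and then 63.2 and 61.4 CPM on chromatin (log2 changes 2.89 and 0.38). IGF2BP3 entered the comparison through si-PADI2 and was not above the silent level. Of 14 nonsense-mediated decay factors, 3 fell and 2 rose, with UPF1 at -0.16 in poly(A) RNA and -1.12 on chromatin. Of 20 small nucleolar RNA host genes, 5 fell and 4 rose in poly(A) RNA and none passed the test on chromatin. The medians of these lists lay between -0.13 and 0.36 in either fraction, and each list's median changed sign in at least 1 fraction under another scaling, filter or gene set.

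Features of the classes are given as a description, since they are not independent of the class rule. That rule uses the chromatin change, which correlated with GC content over the tested genes (Pearson's r = -0.64). From genes of at most 40% GC to those over 60%, median 3′ UTR length fell from 2535 to 601 bases. Their median span fell from 50.6 to 13.1 kb. The median GC content was 47.1% in lower unmatched and 58.3% in lower matched genes, against 48% over all tested. Median 3′ UTR length was 1684 bases in lower unmatched and 852 in lower matched genes, and 1704 in higher unmatched and 1792 in higher matched genes, against 1382. Median gene span was 32.9 kb in lower unmatched, 14.9 kb in lower matched, 41.2 kb in higher unmatched and 65.3 kb in higher matched genes, against 30.2 kb. The share above the silent level was 21.7% of lower unmatched and 8.58% of higher unmatched genes, against 22.1% of all tested.

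In the R1810A polymerase libraries, which entered no class, 3766 of the 13332 genes were lower than in WT (28.2%) and 3513 higher (26.4%). Of the 626 lower unmatched genes 505 were also lower in R1810A (80.7%), and of the 536 higher unmatched genes 423 were higher (78.9%). Matched genes had like shares, 81.5% of the lower and 79.2% of the higher. Lower unmatched genes had a median R1810A change of -0.81 and higher unmatched genes of 0.73. Values for named genes were -1.61 for REEP3, -1.45 for CDC6, -0.87 for SERPINA6, -0.88 for GHR, -0.43 for SLC39A6, 2.70 for GPNMB, 3.97 for CDC20B and 1.77 for SOX2. All 8 passed the test in that comparison. Other lower unmatched genes went the opposite way in R1810A, among them OAS1 at 1.02, MX2 at 0.65 and HSD17B7 at 0.35, which passed the test as well and were picked after their values were seen. Of 36 interferon genes 8 were lower and 17 higher in R1810A, and of 23 cholesterol genes 4 were lower and 12 higher. PADI2 mRNA was also lower in R1810A, with a log2 change of -4.18. Of the 6 unmatched mitochondrial mRNAs, none passed, with changes from -0.12 to -0.47. Genes with 2 or more of the words had a median change of -0.18 in R1810A and genes without one of 0.02.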

How the data were processed

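Exonic read counts per gene are as deposited by the authors. Per the file headers they were made with featureCounts, over the exons of each GENCODE 19 gene (hg19), with strand option 2, and per the submitters' processing notes after Trimmomatic and STAR. The headers show no option that counts reads mapping to several places, so genes with near-identical copies are uncertain. Read mapping settings are not given in the sources used here.

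The 8 siRNA libraries were fitted together with edgeR 4.0.16 (R 4.3.3; quasi-likelihood, TMM, robust), with a mean for each fraction and siRNA. Genes had a mean of at least 1 CPM in both fractions, averaged over both siRNAs. The p-values were Benjamini-Hochberg adjusted over all 13332 genes, and a standard error is the size of the log2 fold change over the root of the F statistic. The script was checked on simulated data. Symbols, GC content and 3′ UTRs came from GENCODE 29, which named 52338 of 57820 genes.

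The members, lists and tests were chosen with earlier results of these data known. Among genes with a mean of at least 30 chromatin counts, the text names the 12 lower and 12 higher unmatched genes of largest difference, 4 and 4 matched genes of largest poly(A) change, 4 and 4 chromatin-only genes, PADI2, and up to 3 genes per list. Genes above the silent level, and other list members given with values, were added after values were seen. Replicates differed by more than sampling noise (chi-square over degrees of freedom 3.55 to 91.7). Alternatives were DESeq2 1.42.0, other scalings, filters and limits, thinned poly(A) counts, GC offsets, a replicate block and leaving out each library.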

Additional observations from a re-analysis of the deposited data

Results flagged for a closer look

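In 40 of the genes named in the report or by rank, the knockdown effect passed the test in both fractions with opposite signs and the difference between the effects passed as well. Over all 13332 genes tested 1051 did so, 2.96% lower in poly(A) RNA and 4.92% higher. Many of the 40 were named for a large difference, which favours opposite signs. Other list members are not included. Each value is the chromatin log2 change minus the poly(A) log2 change.

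Mitochondrial genes and the nuclear copy MTCO3P12 fell in poly(A) RNA and rose on chromatin, with differences given in brackets for MTCO3P12 (3.63), MT-ATP6 (3.46), MT-CO3 (3.42), MT-ND3 (3.25), MT-ATP8 (3.18), MT-CYB (2.89) and MT-ND2 (2.80). Other genes that fell in poly(A) RNA and rose on chromatin were AGXT2 (4.80), ADIPOQ (4.12), IYD (3.51), AL121790.1 (3.50), AC008040.5 (2.54), SPC25 (2.48), PRR11 (2.09), PBLD (1.83), SAMHD1 (1.72), GINS1 (1.69), TNRC6A (1.48), QKI (1.31), HSD17B7 (1.74), IFIT3 (1.76), SARNP (1.24) and AGR2 (1.28). Genes that rose in poly(A) RNA and fell on chromatin were FOXN4 (-5.95), RHBDL3 (-5.62), DUSP13 (-4.24), SCNN1G (-4.21), FOXJ1 (-4.16), MYO7A (-4.15), ENSG00000255050 (-3.88), KRT83 (-3.61), H1-4 (-2.76), H2BC5 (-2.57), ASS1 (-2.32), MELTF-AS1 (-1.91), GLYATL3 (-1.91), PRDX4 (-1.53), EXOSC5 (-1.62), ADCY9 (-2.17) and H2BC4 (-1.76).

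With GC offsets all 40 differences still passed the test, 39 genes kept opposite signs (the FOXJ1 chromatin change was then 0.18) and 21 still passed in both fractions. Scaled by total counts, 40 kept opposite signs and 35 passed in both. With 2 libraries a group, no single library could be tested as standing apart from the others.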

How the results depend on the processing

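Counts of genes depended on scaling, filter and gene set. Scaled by total counts, 1364 differences passed with the chromatin change above the poly(A) change, 2242 genes fell in poly(A) RNA, unmatched genes numbered 415 lower and 836 higher, and above the silent level 80 and 98. With filterByExpr, 764 differences passed above, 1646 genes fell in poly(A) RNA and 5465 on chromatin, 1023 higher mRNAs were unmatched, 309 lower were matched, and 39 lower unmatched genes were above the silent level. With no filter these were 645, 1499, 5374, 1027, 303 and 36, with 1507 genes higher on chromatin and 81 higher matched. Calls of the difference above zero made up 46.2% of all such calls, but 27.9% with total counts, 21.3% with filterByExpr and 18.6% with no filter. Poly(A) calls were 50.7% higher, against 69.8%, 64.9% and 65.1%, and chromatin calls 46% higher, against 27.6% with filterByExpr and 21.9% with no filter. At a mean of at least 5 CPM, 328 higher mRNAs were unmatched and 122 lower and 75 higher were matched. With GC offsets, 1206 genes rose on chromatin, and matched genes numbered 104 lower and 46 higher. With poly(A) counts thinned to the chromatin depth, 2435 genes rose in poly(A) RNA. At a 1.5-fold limit, unmatched genes numbered 1163 lower and 1129 higher and matched genes 451 and 476. In a fit of only the 2948 genes above the silent level, added after the data were seen, 443 and 484 differences passed above and below, 860 genes rose and 801 fell in poly(A) RNA, 453 rose and 552 fell on chromatin, and the classes held 104, 71, 27 and 18 genes (unmatched lower and higher, matched lower and higher). Apart from the changed gene sets and samples, the causes were not tested.

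The word result, a median difference of 0.26, was 0.13 with GC offsets and 0.19 with the shortest 3′ UTR. Leaving out each library gave 0.24 to 0.31, the highest without chromatin si-control replicate 1. Genes higher on chromatin then ranged from 1398 (without chromatin si-PADI2 replicate 2) to 2675, lower unmatched genes from 569 to 641 and higher unmatched from 471 to 552. The chromatin change of RMRP, whose si-control libraries differed widely, was -0.38 without chromatin si-control replicate 5 and 1.68 without replicate 1. For 181 named genes the value followed was the difference where it passed the test, and otherwise the chromatin change. It no longer passed in 17 genes with GC offsets, 6 with total counts and 9 with thinned poly(A) counts. With filterByExpr 28 were lost and with no filter 33, and other settings with all libraries lost at most 4. The sign of 1 value changed, without chromatin si-control replicate 5. Many genes were named for a large difference, and lost chromatin calls were not counted where the difference passed.

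With the replicate block, 2298 and 2734 differences passed above and below, and unmatched genes numbered 627 and 529. The samples share only a number between groups: deviations of same-numbered poly(A) libraries correlated at 0.26 over 2 pairs, and chromatin si-control libraries are numbered 1 and 5. Low chromatin depth, at a median of 62 to 178 counts per tested gene, limits small chromatin changes most.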
